A study of Mus musculus with 6 samples.

Results

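The regions described here are 2280 wide peaks of H3K27me3 that were found in control granulosa cells and not after androgen treatment. They were chosen by their width and their position: each is a peak of the control list on chromosomes 1 to 19 that is over 1000 bp wide and shares 0 bases with any peak of the dihydrotestosterone (DHT) list. They make up 15.0% of the 15203 control peaks on these chromosomes and 31.6% of the sequence those peaks cover (2.78 of 8.81 Mb). The whole series held 20320 peaks, 16345 from control cells and 3975 after DHT.

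H3K27me3 is the trimethylated form of lysine 27 on histone H3. It is written by EZH2, the methyltransferase of Polycomb repressive complex 2, and removed by demethylases such as JMJD3, and it marks chromatin in which genes are kept silent. Over developmental genes the mark typically spreads into wide domains, since the complex binds the mark that it writes. Granulosa cells surround and feed the oocyte, carry the androgen receptor, and make estradiol from androgens with the enzyme aromatase. DHT is an androgen that aromatase cannot turn into estradiol.

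The study immunoprecipitated H3K27me3 from primary cultures of wild type C57BL/6J granulosa cells, taken from mice of 8 to 9 weeks, and sequenced the DNA. Cells pooled from many mice (30 according to the labels, more in the methods of the study) were spread over 6 dishes. Of these, 3 were left without agent (control) and 3 received 25 nM DHT for 24 h. The files hold 1 peak list per group, so there is no value per dish, the depth of each library is unknown, and nothing below can be set against the spread between replicates. All comparisons are therefore between pooled lists and carry no test. Whether these cultures were free of other ovarian cells cannot be read from lists of a histone mark. Coordinates are those of the mouse assembly mm9, counted from 1. Genes and base sequence under the peaks are not analysed here, because the genome annotation at hand belongs to another assembly.

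Of the control peaks over 1000 bp on chromosomes 1 to 19, 95.4% had no DHT peak (2280 of 2391). The corresponding share was 95.9% for control peaks of 1000 bp or less and 95.8% for control peaks of any width. Among DHT peaks over 1000 bp, 79.2% had no control peak (278 of 351). The share was slightly larger among DHT peaks of any width, where 278 wide and 2869 narrow peaks of 3787 had none. Because overlap chose the regions, these shares describe the lists. In the control list 111 wide peaks were kept in the DHT list by the same criterion, and they serve below as the closest comparison.

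The wide control-only peaks were only just wide. Their median width was 1160 bp (quartiles 1077 and 1272 bp) and 95% were narrower than 1712 bp. Of these regions, 758 (33.2%) were no wider than 1100 bp and 42 (1.84%) were over 2000 bp. At the limit itself, 6 control-only peaks measured 1001 bp and 7 measured 1000 bp, with median fold enrichments of 3.52 and 3.25. The 5 narrowest regions and the 5 peaks just outside the limit had fold enrichments from 3.19 to 3.95 and from 3.18 to 3.55.

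The number of control peaks per width class did not fall smoothly toward the wide end. There were 754 peaks from 800 to 899 bp, 797 from 900 to 999 bp, 776 from 1000 to 1099 bp and 661 from 1100 to 1199 bp on chromosomes 1 to 19. The count then dropped to 430, 208 and 99 in the next classes of 100 bp. The narrowest peak of the control list was 261 bp and the smallest gap between neighbouring control peaks was 1050 bp. In broad mode the peak caller joins enriched stretches that lie close together and reports the outer edges, so that a pair of short stretches can appear as 1 wide peak. Of the wide control-only peaks, 1832 (80.4%) were no wider than 1311 bp, the narrowest peak plus the smallest gap, and 155 (6.8%) were wider than 1572 bp, which would hold a pair of narrowest peaks and the gap. In the DHT list the narrowest peak was 275 bp and the smallest gap 1132 bp, and 246 of the 278 wide DHT-only peaks (88.5%) were no wider than their sum of 1407 bp. How many separate stretches each wide peak holds was not tested.

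**Figure D1:**
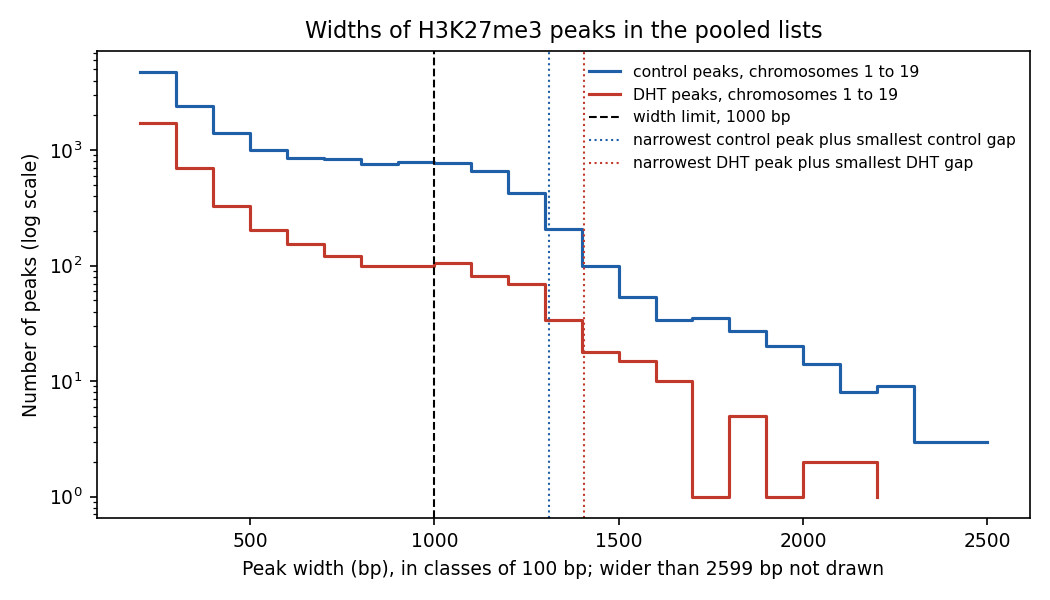
Number of H3K27me3 peaks (log scale) by width in classes of 100 bp, for the pooled control and DHT lists on chromosomes 1 to 19. The control curve stays nearly level from 600 to 1199 bp and falls steeply around 1311 bp, the narrowest control peak plus the smallest gap between control peaks (blue dotted line). The DHT counts decline up to 800 bp and are nearly level from 800 to 1099 bp (99, 99 and 105 per class). They then fall to 34 from 1300 to 1399 bp. The red dotted line marks the corresponding sum for that list, 1407 bp.

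In strength, the wide control-only peaks had lower medians than the other sets of control peaks. The values given for a peak are its fold enrichment over the background used by the peak caller, its −log10 p-value and its −log10 q-value, each a mean over the peak. Whether that background came from input DNA is not given in the sources used here. The median fold enrichment was 3.32 (quartiles 3.20 and 3.50, highest 5.32). It was 3.49 for narrow control-only peaks, 3.52 for wide control peaks kept in the DHT list and 3.79 for wide DHT-only peaks, the last from the other list. The median −log10 q was 1.66, where the lowest of the control list was 1.30, compared with 1.86 for narrow control-only peaks and 2.31 for wide peaks that were kept. A −log10 q of 2 or more, that is a q-value of 0.01 or less, was reached by 17.0% of the wide control-only peaks (388 of 2280, 95% Wilson interval 15.5 to 18.6%), by 41.5% of narrow control-only peaks and by 61.3% of wide peaks that were kept (68 of 111, 52.0 to 69.8%). These intervals cover counting error only. In the DHT list, too, wide DHT-only peaks were weaker than narrow DHT-only ones. Their median fold enrichments were 3.79 and 4.24, and 29.9% and 66.9% of them reached a −log10 q of 2. A lower strength than that of narrow peaks is thus not particular to the wide control-only regions. A −log10 q of 3 or more was found in 23 regions (1.01%), and 1 region passed 5.

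Many of these peaks had a −log10 p under that of every peak in the DHT list. The lowest −log10 p in the DHT list was 4.03, while in the control list it was 3.57. Both lists were called at the same q-value limit, and their lowest −log10 q were 1.35 and 1.30. The same q-value limit thus corresponded to a stricter p-value in the DHT list. Of the wide control-only peaks, 581 (25.5%, 23.7 to 27.3%) had a −log10 p under the DHT minimum. The share was 17.2% (2114 of 12282) for narrow control-only peaks and 7.21% (8 of 111) for the wide peaks that were kept. No DHT peak of that strength was listed, and whether the mark differed at these 581 regions was not tested. When both lists were held to 1 p limit, 1699 regions remained. Among the latter the median fold enrichment was 3.40 and the median −log10 q 1.75.

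**Figure D2:**
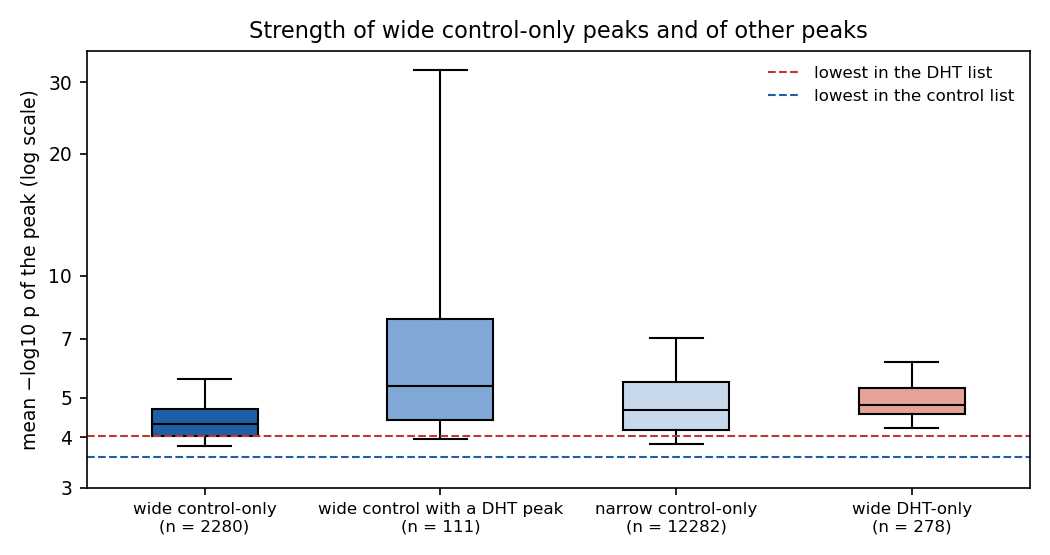
Mean −log10 p of peaks (log scale) in 4 sets of peaks on chromosomes 1 to 19, where boxes span the quartiles, the line is the median and whiskers run from the 5th to the 95th percentile over peaks. Wide control-only peaks have the lowest median, 4.30, and about 25.5% of them lie under the lowest value of the DHT list (red dashed line, 4.03).

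The share of wide control peaks without a DHT peak differed by width and by strength, of which width bears on overlap directly. Up to 1100 bp, 97.3% of 779 wide control peaks had no DHT peak, and the share was 96.6%, 94.2% and 89.3% in the next classes up to 2000 bp and 76.4% (42 of 55) above. By strength the range was larger. Below a −log10 q of 1.5, 98.9% of 609 had no DHT peak, between 3 and 5 it was 52.4% (22 of 42), between 5 and 10 it was 1 of 11, and at 10 or more all 13 wide control peaks had a DHT peak. Within the control-only regions, width and strength had a Spearman rho of 0.20 with each other (width against −log10 q over 2280 regions, which share 1 pool and are not replicates). None of the 10 widest regions was among the 10 with the highest −log10 q, with chromosome 18 left out of the naming.

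**Figure D3:**
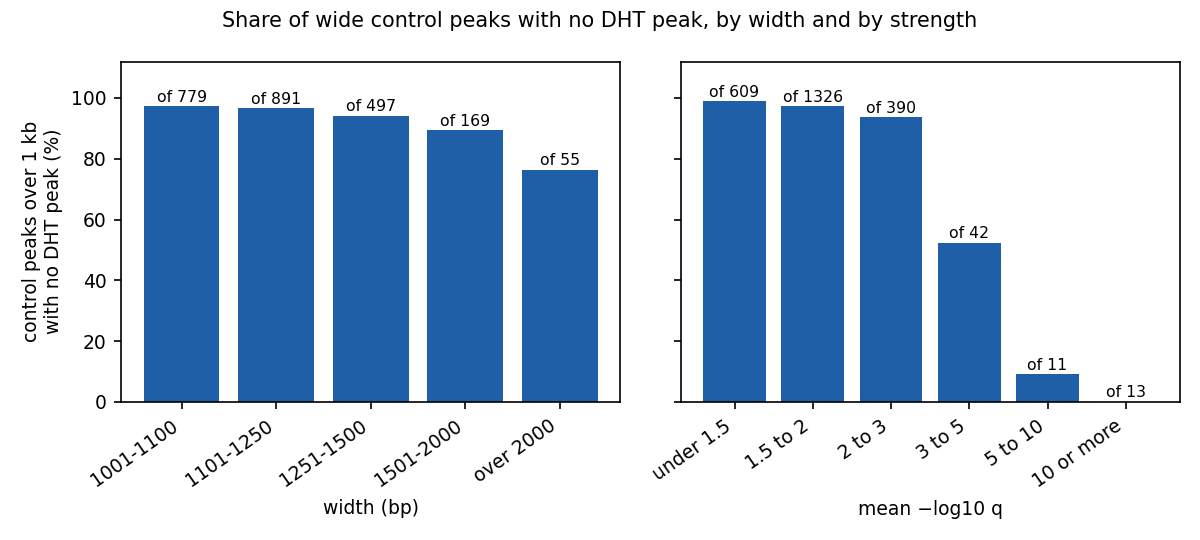
Percentage of control peaks over 1 kb that had no DHT peak, by width (left) and by mean −log10 q (right), with the number of wide control peaks in each class above its bar. The share falls from 97.3% to 76.4% with width and from 98.9% to 0% with strength.

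The widest control-only region was 3202 bp long, at chr3:73559524-73562725. Its fold enrichment was 3.51 and its −log10 q 1.94, and the nearest DHT peak lay 34.7 kb away. The next were chr1:19045821-19048723 (2903 bp, 3.59-fold, −log10 q of 1.97) and chr7:10877105-10879843 (2739 bp, 3.59-fold, −log10 q of 2.09). They lay 26952 bp and 55.1 kb from a DHT peak. All 3 were above the upper quartile of fold enrichment, 3.50. The fourth, chr5:47203928-47206601, was 2674 bp wide with a fold enrichment of 3.12 and a −log10 q of 1.46, and its −log10 p of 3.89 was under the DHT minimum. Further regions in rank were chr2:22291287-22293936 (2650 bp), chr7:105382487-105385076 (2590 bp), chr10:15489151-15491690 (2540 bp), chr3:6552578-6555060 (2483 bp), chr8:102144673-102147128 (2456 bp) and chr6:18336393-18338827 (2435 bp). Of the 10 widest, 2 passed a −log10 q of 2 and 2 were under the DHT minimum.

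The strongest region was chr8:78367819-78369064, 1246 bp wide, with a fold enrichment of 5.32 and a −log10 q of 5.29. The nearest DHT peak was 344 kb away, 275 bp wide and 4.11-fold enriched. It was followed by chr9:11358115-11359213 (1099 bp, 4.84-fold, −log10 q of 4.38), chr8:67409270-67410451 (1182 bp, 4.75-fold, 4.24), chr16:78754992-78756198 (1207 bp, 4.65-fold, 3.85) and chr10:114058260-114059333 (1074 bp, 4.60-fold, 3.82). The same 5 regions led by fold enrichment. The sixth by −log10 q, chr14:36474255-36476308, was both wide and strong, at 2054 bp, 4.54-fold and a −log10 q of 3.8, and the nearest DHT peak was 7.72 kb away. The remaining 4 were chr13:90600828-90601900, chr14:11504875-11505901, chr1:28137987-28139016 and chr10:54408188-54409496, with −log10 q from 3.41 to 3.69. For these 10 the −log10 p ran from 6.85 to 9.25, all above the DHT minimum of 4.03, and the closest DHT peaks were 7.72 to 627 kb away.

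DHT peaks lay about as far from these regions as from narrow control-only peaks. The nearest DHT peak was at a median distance of 211 kb (quartiles 89.3 and 426 kb), and the median for narrow control-only peaks was 215 kb. Within 5 kb, 30 regions had a DHT peak (1.32%, 0.923 to 1.87%), within 10 kb 78 (3.42%), and within 100 kb 637 (27.9%). Across regions, the Spearman rho between this distance and −log10 q was -0.038.

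In a few places a DHT peak stood directly beside the control peak. The closest pair was 29 bp apart, where chr15:102531509-102532685 (1177 bp, 3.54-fold) lay next to a DHT peak of 598 bp and 3.95-fold at chr15:102530882-102531479. The next 4 were chr1:59082540-59084033 at 33 bp, chr10:31778303-31779428 at 52 bp, chr7:90704606-90705621 at 72 bp and chr1:67558366-67559543 at 102 bp, each beside a DHT peak of 275 bp, the narrowest width in that list. Altogether 10 regions had a DHT peak within 1 kb. The 30 DHT peaks within 5 kb had a median width of 280 bp and a median fold enrichment of 4.15 (3.71 to 5.38), and 1 of them was over 1000 bp. Of the 30, 1 overlapped another control peak and 29 overlapped none. Of all 3787 DHT peaks on chromosomes 1 to 19, 278 wide and 2869 narrow ones overlapped none. The 30 were picked for lying beside a control peak that they do not overlap. Few of the regions (2.81%) had a second control peak within 5 kb, so the count of 29 cannot be called high or low.

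At the other end, the farthest region was chr12:21367377-21368583 (1207 bp, 3.53-fold), 4.27 Mb from a DHT peak. The next 4 were on chromosome 3, at 90641365-90642377, 91804942-91806421, 90479770-90480896 and 92229236-92230251. All 4 fell in 1 stretch of 9.15 Mb without a DHT peak, chr3:86611433-95761178, which held 30 control peaks, 5 of them wide and control-only. The stretch around the chromosome 12 region, chr12:17098746-26319337, was 9.22 Mb long and held 8 control peaks, or 0.868 per Mb, where the autosomes had 6.33 per Mb. Other stretches, chosen after their values were seen, held many control peaks and no DHT peak. Of the stretches without a DHT peak, chr5:45620627-48724695 (3.10 Mb) held the highest number of wide control-only peaks, 10 among 28 control peaks. The region that ranked 4 in width was 1 of these 10. Then came chr6:12053842-16489307 (4.44 Mb) with 9 among 46 control peaks, and chr6:76377039-78246776 (1.87 Mb) with 9 among 21. Taken over the 183 stretches of at least 2 Mb without a DHT peak, which span 542 Mb, there were 397 wide control-only peaks, or 0.733 per Mb against 0.949 per Mb over all autosomes. These stretches held 17.4% of the regions and a similar share of control peaks of any width, 2699 of 15203.

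The regions were for the most part solitary. Joining control peaks under 5 kb apart left 2216 of the 2280 alone, and the other 64 were in 58 runs of 2 or 3 control peaks. Of these runs, 6 held a pair of wide control-only peaks and 0 held more. The longest was chr12:102902289-102912384 (10096 bp), with 3 control peaks covering 2918 bp, followed by chr4:6954389-6960907 (6519 bp) and chr12:108809728-108815750 (6023 bp). None of these 3 runs contained a DHT peak, and 2 of the 58 did. The regions in each run share no base with a DHT peak by selection. The runs are also short where DHT peaks averaged 1.58 per Mb of the autosomes. The low count is therefore no result about the runs. The share with another control peak within 5 kb was 2.81% (2.2 to 3.57%), compared with 3.10% for narrow control-only peaks and 13.5% (15 of 111, 8.36 to 21.1%) for wide peaks that were kept.

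The surroundings of the regions were next compared with the autosomal average. Control peaks were found at 8.60 per Mb in the flanks from 5 to 10 kb and at 7.53 per Mb from 500 to 1000 kb, or 1.36 and 1.19 times the average, and around narrow control-only peaks at 1.33 and 1.15 times. Nearer than 5 kb the rate was 0.368 times the average, within which no gap under 1050 bp occurs in the control list. DHT peaks around the regions were at 0.78 times their own average of 1.58 per Mb nearer than 5 kb and at 1.34 times from 5 to 10 kb (48 peaks), close to the 1.36 times of control peaks there. Farther out they were at 1.07 times from 10 to 25 kb, where control peaks were at 1.40 times, at 1.03 times from 100 to 250 kb and at 1.01 times from 500 to 1000 kb. Around narrow control-only peaks the DHT rate was similar, at 0.926 times nearer than 5 kb and 1.21 times from 5 to 10 kb. It was 1.07 times from 10 to 25 kb, 1.07 times from 100 to 250 kb and 1.02 times from 500 to 1000 kb. Around the 111 wide peaks that were kept, the DHT rate was 9.16 times the average from 10 to 25 kb and 1.19 times from 100 to 250 kb. Control peaks there were at 3.52 and 1.11 times their own average. The DHT excess from 10 to 25 kb was carried by few places, since 17 of the 111 had a DHT peak in that flank. These 111 were chosen because a DHT peak overlaps them, and the regions because none does. Their contrast in DHT peaks is therefore not independent of the selection. Flanks of neighbouring regions overlap, so a peak can be counted more than once.

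**Figure D4:**
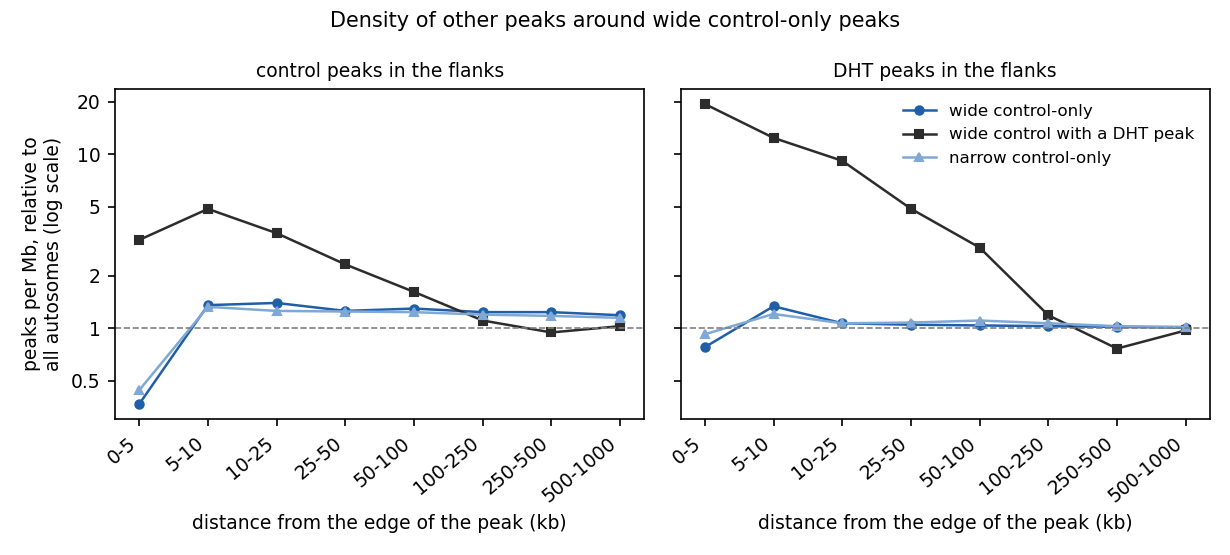
Density of control peaks (left) and DHT peaks (right) in the flanks of 3 sets of control peaks by distance from the peak edge, relative to the density over all autosomes (log scale, dashed line at 1). Around wide control-only peaks control peaks stay near 1.2 to 1.4 times the average beyond 5 kb and DHT peaks near 1 beyond 10 kb. Around wide control peaks that have a DHT peak, the DHT density rises up to the nearest flank. The control density there is highest from 5 to 10 kb (4.85 times) and lower nearer than 5 kb (3.22 times). A DHT peak that overlaps the central peak is counted when its midpoint lies in the flank.

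Across chromosomes the number of regions ranged from 38 on chromosome 19 to 225 on chromosome 1. As a share of the control peaks of each chromosome they ranged from 11.8% on chromosome 7 (71 of 600) to 17.2% on chromosome 6 (168 of 978) and on chromosome 12 (120 of 698). The median width per chromosome stayed between 1126 and 1192 bp and the median fold enrichment between 3.25 and 3.38. The share of wide control peaks without a DHT peak was lowest on chromosome 11 (87.8%, 86 of 98) and highest on chromosome 18 (98.9%, 90 of 91). With each chromosome divided into 10 equal parts from the first to the last listed peak, the regions were 12.5 to 16.3% of the control peaks, lowest in the last (166 of 1326). On chromosome X, which was not part of the selection, 189 peaks met the same criteria, or 16.6% of the 1141 control peaks there.

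Gene-poor chromosomes held more of these regions per megabase. With chromosome lengths, GC content and protein-coding gene counts taken from GRCm38, an assembly other than that of the peaks, density ran from 0.488 per Mb on chromosome 7, the most gene-dense, to 1.15 per Mb on chromosome 1, with 6.16 coding genes per Mb. Over 19 chromosomes the Pearson correlation of density with coding genes per Mb was -0.872 (Spearman rho -0.816), and -0.779 without chromosomes 7 and 11. With GC content it was -0.786 (rho -0.875), and -0.820 without chromosomes 3 and 11. Control peaks of any width, from which the regions were drawn, gave -0.821 and -0.807. As a share of the control peaks of each chromosome, the regions were also fewer on gene-rich chromosomes, with r of -0.622 for coding genes per Mb (rho -0.551, and r of -0.483 without chromosomes 7 and 11) and -0.465 for GC content (rho -0.515). The share was 11.8% on chromosome 7, 12.3% on chromosome 17, 12.5% on chromosome 19 and 13.3% on chromosome 11. For DHT peaks per Mb the corresponding correlations were -0.369 and -0.184. The points of each list share 1 pool, its depth and its base composition, and gene content and GC content move together, so these values are descriptions.

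**Figure D5:**
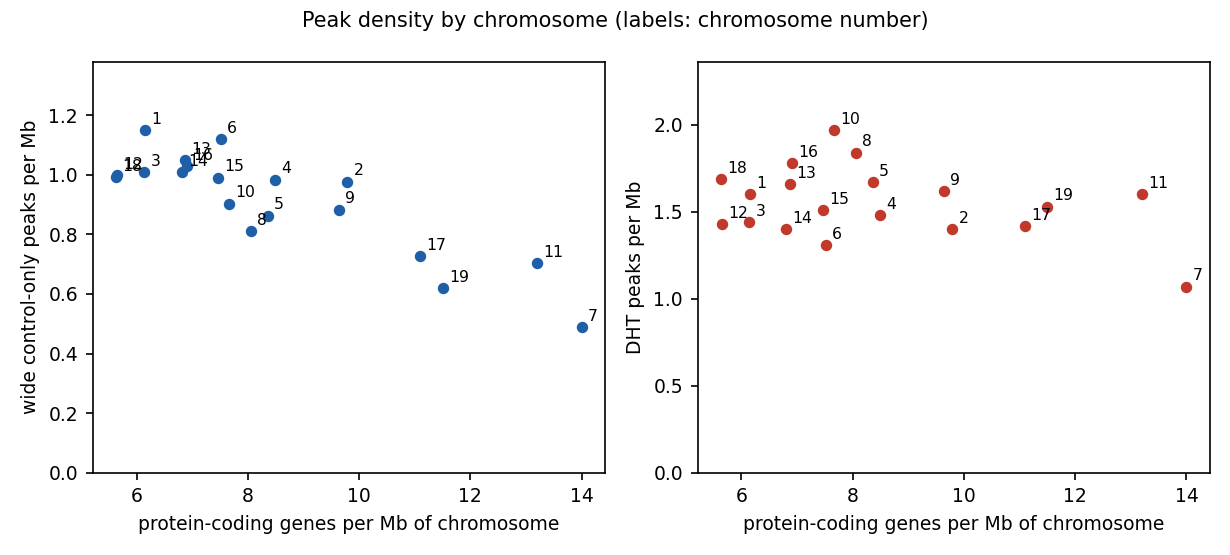
Wide control-only peaks per Mb (left) and DHT peaks per Mb (right) against protein-coding genes per Mb, 1 point for each of chromosomes 1 to 19, labelled by number, with lengths and genes from GRCm38. Wide control-only peaks are sparse on the gene-rich chromosomes 7, 11, 17 and 19 (0.488 to 0.726 per Mb). The correlation was -0.872 for them and -0.369 for DHT peaks. For control peaks of any width, not drawn, it was -0.821.

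On a finer scale the regions were spread thinly. Of 2421 windows of 1 Mb, 1083 (44.7%) held 0 of them, 730 held 1, 377 held 2, and 75 (3.10%) held 4 or more. The windows with 4 or more held 328 regions (14.4%), and 18 of the 75 had no DHT peak. The most in 1 window was 6, reached in 5 windows that were picked out after their values were seen. These were 5 to 6 Mb of chromosome 13 (21 control peaks, 1 DHT peak), 92 to 93 Mb of chromosome 14 (20 and 6), 110 to 111 Mb of chromosome 14 (17 and 1), 28 to 29 Mb of chromosome 1 (12 and 5) and 77 to 78 Mb of chromosome 6 (11 and 0). Even the densest windows thus differed in whether DHT peaks were present nearby. Windows without any DHT peak held 472 regions, or 20.7% of them. The share of all windows without a DHT peak, and of all control peaks in such windows, is not given here. Neither the 20.7% nor the 18 of 75 can therefore be called high or low.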

How the data were processed

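H3K27me3 ChIP-seq was performed on 3 control and 3 DHT samples. Per the labels and the methods of the study, the authors mapped reads to mm9 with Bowtie2 2.3.4, kept uniquely mapped reads and called broad peaks with MACS2 2.1.1 at a q-value of 0.05 or less. Whether input DNA was used and how the 3 samples of a group were combined is not given in the sources used here. Duplicate reads were dropped during calling according to the methods, and names in the deposited lists show an automatic duplicate setting. The deposited columns used were peak position, fold enrichment (a ratio), −log10 p-value and −log10 q-value. The deposited score, 10 times the −log10 q rounded down, was not analysed. Deposited gene lists were left out, since a symbol list does not tie a gene to a peak.

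Overlap of 1 bp or more, distances between peak edges, runs and flank densities were computed in Python 3.11.15 with numpy 2.4.6, pandas 2.3.3 and scipy 1.17.1, and checked on simulated lists. Plots were drawn with matplotlib 3.10.9. The regions and summaries were chosen with earlier results of these data known. Peaks named were the 10 widest, the 10 with the highest −log10 q, the 5 with the highest fold enrichment, the 5 narrowest and the 5 just outside the width limit, the 5 nearest to and 5 farthest from a DHT peak, and the 3 runs with most regions, without chromosome 18. Depth per sample is unknown, intervals cover counting error, and no test was run.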

Additional observations from a re-analysis of the deposited data

How the results depend on the processing

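No paired analysis was possible because each group has 1 pooled list, and fits without each replicate or with the replicate number as a block could not be run for the same reason. Of 63 values (9 summaries under 7 alternatives), 37 stayed within the interval of the reported value, or within 1.5 times of a count or length. At a q-value of 0.01 or less in both lists 398 regions remained, covering 0.509 Mb. Their median width was 1214 bp, fold enrichment 3.73, −log10 q 2.21 and distance to a DHT peak 304 kb. Of wide control peaks, 87.3% then had no DHT peak, and 0.754% of regions had a control peak within 5 kb. That limit drops the weaker peaks of both lists. The higher strength, longer distance and fewer neighbours therefore follow at least in part by construction. A width over 2000 bp left 42 regions and 0.0955 Mb (2194 bp, 3.34-fold, −log10 q of 1.73, 143 kb), of which 0% had a control peak within 5 kb, and 76.4% of control peaks that wide had no DHT peak. With the same p limit in both lists the medians were 1177 bp, 3.40-fold and 1.75, the shares 94.3% and 2.18%, and by construction 0% were under the DHT minimum. The share of wide control peaks without a DHT peak was 98.2% when a DHT peak had to cover 50%, and 94.1% when one within 5 kb counted. Merging peaks within 5 kb gave a median of 1177 bp and, by construction, 0% with a neighbour. The unknown depth limits every count of peaks absent after DHT.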
